A study of Homo sapiens with 4 samples.

Results

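The cadherin superfamily genes described here were the single cadherins (CDH symbols), the protocadherins of the PCDHA, PCDHB and PCDHG clusters, the protocadherins outside these clusters, and the large cadherins *FAT1* to *FAT4*, *DCHS1* and *DCHS2*. Membership was decided by gene symbol, with no threshold on a measured value. The rule found 93 of the 28278 genes in the count table. These were 23 single cadherins, 11 non-clustered protocadherins, 6 FAT and DCHS genes, 15 PCDHA genes, 16 PCDHB genes and 22 PCDHG genes. Poly(A) RNA was sequenced from HepG2 cells, a human liver cancer line, in 2 libraries labelled control and 2 labelled sgUSP22. All 4 libraries came from cells that carried Cas9 by lentivirus and had been exposed to 10 µM Sorafenib, a multikinase inhibitor, for 24 h. The groups differed in the guide RNA, a control guide or a guide against *USP22*, which encodes a deubiquitinase that acts on histone H2B. No library without Sorafenib was compared, so a response to the drug was not measured. The cells were stable populations, and nothing says that the libraries of a group came from separate cultures, so the p-values measure the spread between these libraries, which may be technical.

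Classical cadherins join neighbouring cells by calcium-dependent binding of their outer domains, and their tails hold the catenins that lead to actin. Epithelial cells are known for E-cadherin (*CDH1*), and mesenchymal and many cultured tumour cells for N-cadherin (*CDH2*). The clustered protocadherins lie in 3 gene arrays on chromosome 5 and are best known in neurons, where single cells use few of them, each from a promoter of its own. FAT and DCHS proteins are very large cadherins that bind each other across cell borders in planar polarity and growth control.

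Total counts ranged from 62030307 to 64728272 per library, and levels are given as CPM, counts scaled to library size with TMM factors. Where a gene was listed at 0, counting error alone leaves room for 3 counts, which is 0.0457 to 0.0492 CPM across the libraries. *USP22*, the target of the guide, had 16450 and 16537 counts in control replicates 1 and 2, against 20279 and 20368 in the replicates labelled sgUSP22 (log2 fold change 0.22, SE 0.034, edgeR adjusted p = 0.000394). Its transcript was thus not lower under the knockout label, and directions below follow the label. The authors checked the knockout by Western blot of the protein, which RNA counts do not measure. Of 24 hepatocyte markers, 11 were listed at 0 in all 4 libraries, *ALB*, *APOA1*, *APOB* and *TTR* among them, and 21 did not exceed 19 counts in any library. The hepatocyte list summed to between 25.4 and 25.7 CPM in control and was as low as 21.1 CPM in sgUSP22 libraries. These libraries thus lacked the defining transcripts of the labelled cell type, and the line is named by its label only. The 11 mesenchymal markers, led by *VIM*, summed to between 2000 and 2015 CPM in control and between 2326 and 2346 CPM in sgUSP22 libraries. Single genes went both ways, with 4 of the 9 tested higher and 3 lower in sgUSP22 at an edgeR adjusted p below 0.05. The 11 epithelial markers, led by *KRT18*, summed to between 2007 and 2045 CPM and between 1515 and 1572 CPM, with *KRT19*, *CLDN6* and *GRHL2* listed at 0. Here too the genes were mixed, with 2 of the 6 tested higher and 3 lower by the same measure. The 8 endothelial markers (3 at 0, led by *EGFL7*) summed to 24.4 CPM in control and between 15.6 and 16.3 CPM in sgUSP22 libraries. Of these 8, 6 did not exceed 16 counts in any library. The 6 blood markers (4 at 0, led by *CD68*) summed to between 73.8 and 73.9 CPM and between 43.9 and 46.9 CPM. Of these 6, 5 did not exceed 4 counts, so that this sum was *CD68* almost alone. The 7 neural markers (3 at 0, led by *TUBB3*) summed to at most 19.3 CPM. The part of these shifts in the values below was not tested, and fewer cells of a type and less RNA per cell cannot be told apart in bulk RNA.

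Most cadherin superfamily genes had little or no signal. Of the 93 genes, 32 were listed at 0 in all 4 libraries, 5 more stayed at or under 3 counts, 26 had more than 3 counts in some library but did not pass the filter on low counts, and 30 were tested. A gene was called when edgeR's quasi-likelihood test gave an adjusted p-value below 0.05 and the fold change was at least 1.5. In the sgUSP22 libraries 5 genes were called higher (*PCDH7*, *PCDHAC2*, *PCDHB12*, *PCDHB14* and *PCDHGA10*) and 1 was called lower (*PCDH1*), beside calls in 16.1% of the 15150 genes tested in all. Without control replicate 2 there were 8 genes called higher, without either sgUSP22 library 3, and 2 were called lower without control replicate 1, control replicate 2 or sgUSP22 replicate 2. By direction, 16.7% of the tested members were called higher, beside 8.88% of all genes, and 3.33% were called lower, beside 7.25%. A gene that reaches the filter's level in 1 group alone has to differ, which held for *PCDHB12* and *PCDHGB2*, both through the sgUSP22 libraries. Of the 28 tested members that reached it in both groups, 4 were called higher and 1 lower. The median log2 fold change was 0.27 over the 30 tested members and 0.0009 over all tested genes, with 21 of the 30 above 0 and 9 below (19 and 9 of the 28 that reached the filter in both groups). The groups did not overlap in 22 of 30 members, or 73.3%, beside 75.9% of all tested genes (20 of the 28).

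The called genes were all protocadherins. Of 15 tested clustered genes 4 (26.7%) were called higher and 0 lower. Of 15 tested genes outside the clusters 1 (6.67%) was called higher and 1 (6.67%) lower. Over all tested genes 8.88% were called higher and 7.25% lower. The difference between these classes was not tested, and the 4 clustered calls include *PCDHB12*, which reached the filter's level in sgUSP22 libraries alone. Without the fold threshold, 7 members had an adjusted p below 0.05 in the higher direction (26.8% of all tested genes did) and 5 in the lower direction (25.8% of all). The single cadherins made up 4 of these 5 lower genes, although none of them reached 1.5-fold.

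**Figure D1:**
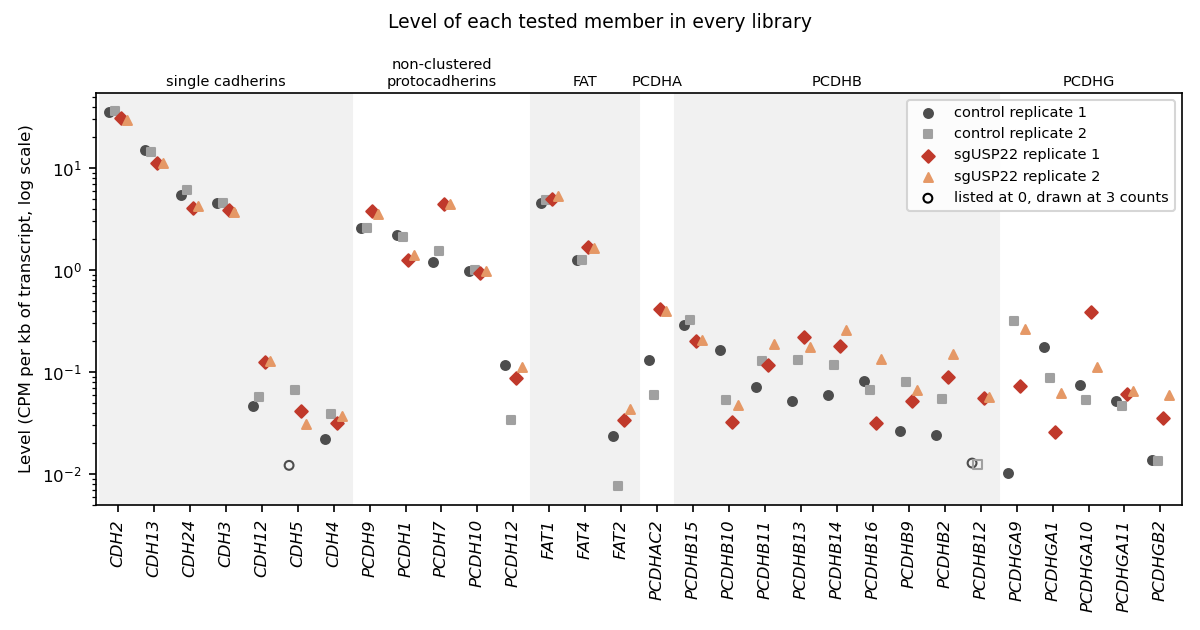
Level of each tested member in CPM per kb of its canonical transcript, on a log axis, with 1 symbol per library and open symbols drawn at 3 counts for a gene listed at 0. *CDH2* and *CDH13* had the highest levels, the clustered protocadherins lay below 0.5 CPM per kb, and *PCDH7* moved from 1.36 to 4.43 CPM per kb in the group means.

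Among single cadherins *CDH2* carried the largest share of the signal and *CDH1* none. *CDH1* (hg38, chromosome 16, 68737292 to 68835537, plus strand) was listed at 0 in all 4 libraries, and *EPCAM*, another epithelial surface gene, did not exceed 4 counts. *CDH2* (chromosome 18, 27932879 to 28177946, minus strand) had 8779 and 9008 counts in control and 8155 and 7657 counts in sgUSP22 libraries. Both sgUSP22 libraries lay below both control libraries. The mean was 144 ± 0.293 CPM (SD, n = 2) in control and 121 ± 3.88 CPM (SD, n = 2) in sgUSP22, a 1.19-fold lower level (log2 fold change -0.25, SE 0.039, edgeR adjusted p = 0.000477) that stayed under the 1.5-fold threshold. Per kilobase of its canonical transcript, *CDH2* ranked first of the members in both groups, with 35.9 CPM per kb in control and 30.2 CPM per kb in sgUSP22. Its share of all member counts was 32.5% and 32.0% in control and 28.5% and 27.2% in sgUSP22 libraries.

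*CDH13*, T-cadherin, which is anchored in the membrane by a lipid and has no tail for catenins, was second. It had 7248 and 7078 counts in control and 5800 and 5719 counts in sgUSP22 libraries. Its groups did not overlap, and the mean fell from 116 ± 3.83 to 88.4 ± 0.233 CPM (SD, n = 2 each), a log2 fold change of -0.39 (SE 0.041, edgeR adjusted p = 3.4e-05) that is 1.31-fold. *CDH24*, a type II cadherin, had 1132 and 1303 against 921 and 940 counts (log2 fold change -0.47, SE 0.093, edgeR adjusted p = 0.00204). *CDH3*, P-cadherin, had 1242 and 1252 against 1137 and 1059 counts (log2 fold change -0.26, SE 0.083, edgeR adjusted p = 0.0227). These 4 cadherins thus shared a direction, with sgUSP22 libraries below control libraries in each and no change of 1.5-fold. When GC content and length were corrected for, the log2 fold change was -0.58 for *CDH13* and -0.29 for *CDH24*, and with library size alone the adjusted p of *CDH3* in edgeR's test was 0.056.

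The remaining single cadherins were near the limit of detection. *CDH12*, a type II cadherin known from brain, had 12 and 15 counts in control and 35 in each sgUSP22 library (log2 fold change 1.29, SE 0.51, edgeR adjusted p = 0.0576), and did not pass the test. *CDH4*, R-cadherin, had 9 and 16 against 14 and 16 counts, and *CDH5*, the cadherin of endothelial junctions, had 0 and 17 against 11 and 8 counts, with overlapping groups in both. Listed at 0 throughout were, beside *CDH1*, *CDH6*, *CDH7*, *CDH8*, *CDH9*, *CDH11*, *CDH16*, *CDH17*, *CDH18*, *CDH19*, *CDH20* and *CDH22*. *CDH10* did not exceed 3 counts, *CDH15* 14, *CDH23* 5 and *CDH26* 4. The summed level of the 23 single cadherins was 301 ± 1.70 CPM in control and 242 ± 3.93 CPM in sgUSP22 (SD, n = 2 each), a ratio of 0.804 that follows *CDH2* and *CDH13* for the most part.

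The non-clustered protocadherins, in contrast, held 1 gene called in each direction. This is 20% of their 5 tested genes each way, beside 8.88% of all tested genes called higher and 7.25% lower. *PCDH7*, a delta protocadherin with long tail isoforms (hg38, chromosome 4, 30720369 to 31146805, plus strand), had 636 and 838 counts in control and 2557 and 2506 counts in sgUSP22 libraries. The lowest sgUSP22 library lay far above the highest control library. The mean rose from 11.9 ± 2.12 to 38.9 ± 0.065 CPM (SD, n = 2 each), a 3.26-fold change (log2 fold change 1.70, SE 0.11, edgeR adjusted p = 1.39e-06). Per kilobase, *PCDH7* moved from rank 8 of the members in control, at 1.36 CPM per kb, to rank 4 in sgUSP22, at 4.43 CPM per kb. Its share of all member counts was 2.35% and 2.98% in control and 8.93% and 8.90% in sgUSP22 libraries. The 5 tested neighbours within 5 Mb had a median log2 fold change of 0.093, and none of them was called.

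*PCDH1*, a protocadherin of epithelial contacts and a hantavirus receptor (chromosome 5, 141853090 to 141879246, minus strand), moved the other way. It had 648 and 635 counts in control and 397 and 439 counts in sgUSP22 libraries, without overlap. The mean fell from 10.4 ± 0.317 to 6.42 ± 0.537 CPM (SD, n = 2 each), 1.62-fold lower (log2 fold change -0.70, SE 0.12, edgeR adjusted p = 0.000772). It lies on the same chromosome arm as the 3 clusters, and the 70 tested non-member genes within 5 Mb had a median log2 fold change of -0.041. *PCDH9* had 971 and 1000 against 1562 and 1418 counts, a rise of 1.43-fold below the threshold (log2 fold change 0.52, SE 0.084, edgeR adjusted p = 0.000565), and 0.33 with the GC and length correction. *PCDH10* had 506 and 530 against 518 and 538 counts, with overlapping CPM values and a log2 fold change of -0.05 (SE 0.11, edgeR adjusted p = 0.741) that turned to 0.0018 when scaled by library size alone. *PCDH12*, known from endothelium, had 41 and 12 against 33 and 41 counts, also with overlap, and 10 of its exon bases lie opposite *RNF14* on the other strand. Of the remaining genes *PCDH8*, *PCDH18* and *PCDH20* were listed at 0, and *PCDH15*, *PCDH17* and *PCDH19* did not exceed 4 counts.

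The 250 bases before the RefSeq start of *PCDH7* and *PCDH1* are shown because these are the called genes outside the clusters (RefSeq, GRCh38.p14, read 5′ to 3′ along the gene, with each CG in capitals).
PCDH7, chr4:30720119-30720368, plus strand: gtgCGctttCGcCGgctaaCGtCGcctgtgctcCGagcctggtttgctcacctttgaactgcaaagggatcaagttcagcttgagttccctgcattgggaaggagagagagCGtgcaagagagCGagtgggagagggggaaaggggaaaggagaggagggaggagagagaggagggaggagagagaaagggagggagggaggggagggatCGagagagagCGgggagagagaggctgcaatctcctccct
PCDH1, chr5:141869628-141869877, minus strand: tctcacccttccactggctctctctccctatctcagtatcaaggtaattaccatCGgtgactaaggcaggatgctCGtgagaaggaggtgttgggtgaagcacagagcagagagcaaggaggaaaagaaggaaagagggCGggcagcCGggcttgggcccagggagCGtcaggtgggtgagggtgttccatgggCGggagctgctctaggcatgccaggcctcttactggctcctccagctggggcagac
The *PCDH7* stretch held 10 CG pairs and 59.6% GC, and the *PCDH1* stretch held 6 CG pairs and 59.2% GC, beside a median of 11 CG pairs over 35116 promoters of the same length. The RefSeq start used for *PCDH1* lies 9619 bases inside the gene as GENCODE places it, so that this stretch belongs to an inner start. These sequences describe the genes and were not tied to their change.

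**Figure D2:**
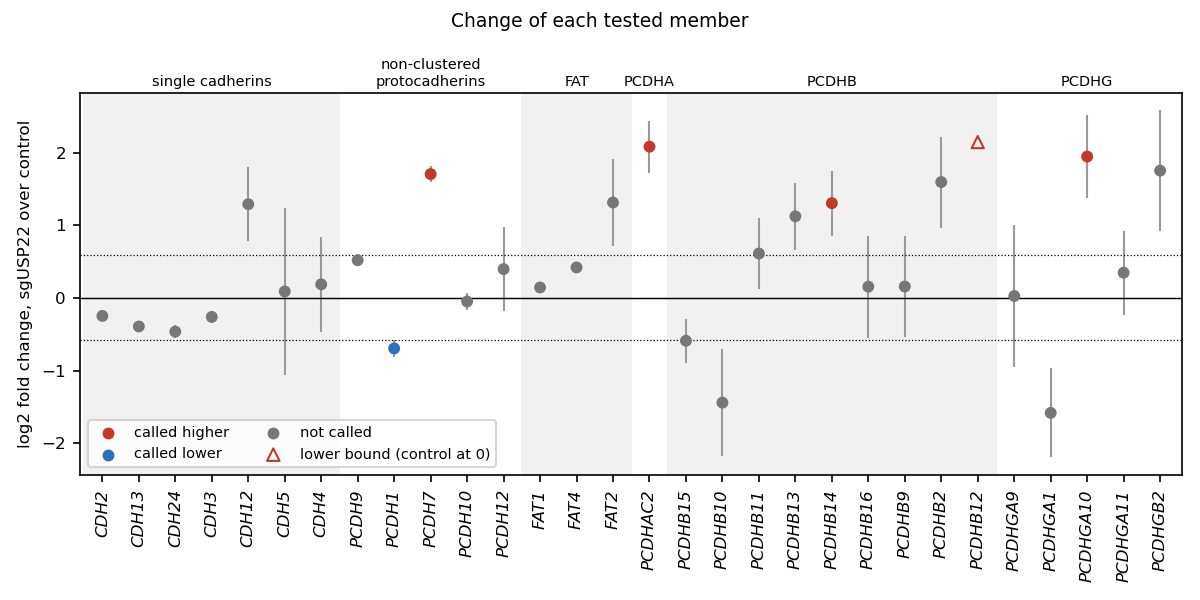
Log2 fold change (sgUSP22 over control) of each tested member, by family, with bars of 1 SE, dotted lines at 1.5-fold and an open triangle at the lower bound for *PCDHB12*. The bound sets control at 3 counts and leaves out the counting error of the sgUSP22 counts. The called *PCDH7*, *PCDHAC2*, *PCDHB14* and *PCDHGA10* lie above the upper line and *PCDH1* below the lower one. *CDH2*, *CDH13*, *CDH24* and *CDH3* lie below 0 between the lines.

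*FAT1*, *FAT4* and *FAT2* were tested, and none was called. *FAT1*, a receptor tied to actin regulators at the cell edge, had 4065 and 4519 counts in control and 4867 and 5132 counts in sgUSP22 libraries (69.6 ± 4.08 against 76.8 ± 3.84 CPM, SD, n = 2 each). The log2 fold change was 0.14 (SE 0.055, edgeR adjusted p = 0.0538), it did not pass the test, and its sign turned to -0.066 after a correction for GC content and length. *FAT4*, the receptor that binds DCHS1, had 1305 and 1345 against 1906 and 1835 counts (log2 fold change 0.42, SE 0.071, edgeR adjusted p = 0.00075), a 1.34-fold difference. The same correction brought *FAT4* to 0.19. Both DCHS genes, which encode the ligands, were listed at 0 in all 4 libraries. *FAT2* had 21 and 7 against 33 and 41 counts and did not pass the test (log2 fold change 1.31, SE 0.60, edgeR adjusted p = 0.0938), and *FAT3* did not exceed 4 counts.

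The clustered protocadherins share reads by their gene structure. Each PCDHA or PCDHG gene has a first exon of its own that can be joined to constant exons common to its cluster, while PCDHB genes stand alone. In the annotation (GENCODE v44, hg38), the 15 PCDHA genes had 3 exons in common, of 59, 89 and 2721 bases, and the 22 PCDHG genes had 3, of 59, 89 and 2029 bases. The 16 PCDHB genes had 0. Reads from the common exons cannot be tied to 1 gene, so values of single PCDHA and PCDHG genes are uncertain, and the sum over a cluster does not depend on how those reads were divided. The first constant exon of the alpha cluster (chr5:140978949-140979007) and of the gamma cluster (chr5:141494807-141494865), both on the plus strand, are shown because each is annotated in all genes of its cluster. Capitals mark the bases that differ.
Alpha constant exon: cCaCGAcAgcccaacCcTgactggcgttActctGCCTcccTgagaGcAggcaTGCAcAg
Gamma constant exon: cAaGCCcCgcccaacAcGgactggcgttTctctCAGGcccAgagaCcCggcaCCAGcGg
They differed at 20 of 59 positions, an identity of 66.1%.

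Summed over each cluster, all 3 had more counts in both sgUSP22 libraries than in either control library, by different amounts. The PCDHA sum was 60 and 52 counts in control and 159 and 156 counts in sgUSP22 libraries, or 0.909 ± 0.106 against 2.42 ± 0.0022 CPM (SD, n = 2 each), a ratio of 2.66. The PCDHB sum was 223 and 263 against 293 and 361 counts, or 3.94 ± 0.395 against 5.02 ± 0.801 CPM, a ratio of 1.28. The PCDHG sum was 143 and 215 against 236 and 235 counts, or 2.90 ± 0.778 against 3.62 ± 0.0345 CPM, a ratio of 1.25. Sums over chosen genes were given no test. For beta and gamma the distance between the group means was of the order of the spread within 1 group, and without control replicate 1 the log2 ratio of the gamma sum dropped from 0.32 to 0.069. The 68 tested non-member genes within 5 Mb of *PCDHAC2* had a median log2 fold change of -0.049.

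The alpha cluster was *PCDHAC2* for the most part. This is the last variable exon of the cluster, a C-type gene that neurons are known to use without random choice. *PCDHAC2* (hg38, chromosome 5, 140966470 to 141012347, plus strand) had 46 and 21 counts in control and 155 and 146 counts in sgUSP22 libraries. The mean rose from 0.546 ± 0.295 to 2.31 ± 0.0687 CPM (SD, n = 2 each), 4.23-fold (log2 fold change 2.08, SE 0.36, edgeR adjusted p = 0.000827). Without control replicate 1 the log2 fold change was 2.77 and without control replicate 2 it was 1.61, both called. It made up 97.5% and 93.6% of the alpha counts in sgUSP22 libraries and 76.7% in control replicate 1. In control replicate 2, *PCDHA11* took 59.6% of the alpha counts with 31 counts, and it was listed at 0 in the other 3 libraries. Without *PCDHAC2*, the remaining 14 genes summed to 14 and 31 counts in control and 4 and 10 counts in sgUSP22 libraries. As listed, the higher alpha sum was thus in *PCDHAC2*, within the limit set by the shared exons. *PCDHA1* had 7, 0, 0 and 10 counts in control replicates 1 and 2 and sgUSP22 replicates 1 and 2, *PCDHA10* had 7 counts in control replicate 1 alone, and *PCDHA13* did not exceed 4 counts. *PCDHA2* to *PCDHA9*, *PCDHA12* and *PCDHAC1* were listed at 0.

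The 250 bases before the RefSeq start of *PCDHAC2* (GRCh38.p14, each CG in capitals) are shown because the alpha change rests on this gene.
PCDHAC2, chr5:140966226-140966475, plus strand: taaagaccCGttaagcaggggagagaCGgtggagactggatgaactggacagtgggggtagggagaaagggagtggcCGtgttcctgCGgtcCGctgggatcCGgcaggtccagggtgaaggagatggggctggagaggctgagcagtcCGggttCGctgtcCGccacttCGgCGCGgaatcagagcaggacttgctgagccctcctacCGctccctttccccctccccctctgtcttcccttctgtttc
This stretch held 13 CG pairs and 62.4% GC, beside a median of 5 CG pairs over the PCDHA promoters and 11 over all promoters. The same stretch of *PCDHAC1*, which was listed at 0 in all libraries, held 18 CG pairs and 63.2% GC, so this content was not particular to *PCDHAC2*.

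Of the 9 tested PCDHB genes, *PCDHB12* and *PCDHB14* were called higher and none lower, with a median log2 fold change of 0.61. The share called higher was 22.2%, beside 8.88% of all tested genes. Both the share and the median include *PCDHB12*, which reached the filter's level in sgUSP22 libraries alone and so had to differ. PCDHB genes are known for coding sequences in a single exon, so they are not joined to constant exons. *PCDHB12* (chromosome 5, 141208697 to 141212571, plus strand) was listed at 0 in both control libraries and had 14 counts in each sgUSP22 library (edgeR adjusted p = 0.00912). The observed level was at least 4.42-fold higher against a floor of 3 counts in each control library. This bound leaves out the counting error of the 14 counts, so a smaller change is possible. *PCDHB14* (chromosome 5, 141223343 to 141227759, plus strand) had 16 and 32 against 52 and 73 counts, or 0.388 ± 0.177 against 0.961 ± 0.24 CPM (SD, n = 2 each). Its groups did not overlap (log2 fold change 1.30, SE 0.45, edgeR adjusted p = 0.0323), and the call was lost with DESeq2, without the filter, and without control replicate 1 or sgUSP22 replicate 2. Of the beta genes not called, the 3 with the most counts follow. *PCDHB15* had 70 and 80 against 52 and 53 counts (log2 fold change -0.59, SE 0.30, edgeR adjusted p = 0.13). *PCDHB13* had 16 and 41 against 74 and 57 counts (log2 fold change 1.12, SE 0.46, edgeR adjusted p = 0.066). *PCDHB11* had 18 and 33 against 32 and 50 counts, with overlap (log2 fold change 0.61, SE 0.49, edgeR adjusted p = 0.324). *PCDHB5* had 21 and 8 against 5 and 7 counts and was not tested, *PCDHB1* was listed at 0, and *PCDHB4*, *PCDHB6* and *PCDHB7* did not exceed 3 counts.

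Of the 22 PCDHG genes 5 were tested, and *PCDHGA10* was called higher, a share of 20% beside 8.88% of all tested genes. *PCDHGA10* (chromosome 5, 141412987 to 141512975, plus strand) had 22 and 16 counts in control and 121 and 35 counts in sgUSP22 libraries, or 0.309 ± 0.0738 against 1.19 ± 0.919 CPM (SD, n = 2 each). The 2 sgUSP22 libraries lay far apart, and the call (log2 fold change 1.94, SE 0.57, edgeR adjusted p = 0.0163) rested on sgUSP22 replicate 1, without which the log2 fold change was 0.80 and the adjusted p was 0.392. *PCDHGA9* had 3 and 95 against 23 and 81 counts, so that the libraries of each group lay far apart and the groups overlapped (log2 fold change 0.03, SE 0.97, edgeR adjusted p = 0.985). *PCDHGA1* had 51 and 26 against 8 and 19 counts (log2 fold change -1.58, SE 0.61, edgeR adjusted p = 0.0522), and *PCDHGA11* had 15 and 14 against 19 and 20 counts. The leading gamma gene was *PCDHGA1* in control replicate 1 with 35.7% of the gamma counts, *PCDHGA9* in control replicate 2 with 44.2%, *PCDHGA10* in sgUSP22 replicate 1 with 51.3% and *PCDHGA9* in sgUSP22 replicate 2 with 34.5%. *PCDHGA4* had 0 and 4 against 24 and 7 counts and was not tested, *PCDHGA12* did not exceed 3 counts, and *PCDHGB5*, *PCDHGC3*, *PCDHGC4* and *PCDHGC5* were listed at 0.

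Promoters of clustered protocadherins are known for a conserved element with the core letters CGCT near a site bound by CTCF. Stretches of 60 bases around that core are shown for the called beta and gamma genes and for *PCDHB15*, the most abundant beta gene in control libraries, which was not called (RefSeq, GRCh38.p14, the core in capitals).
PCDHB12, chr5:141208631-141208690, plus strand: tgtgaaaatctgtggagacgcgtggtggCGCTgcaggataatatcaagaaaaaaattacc
PCDHB14, chr5:141223251-141223310, plus strand: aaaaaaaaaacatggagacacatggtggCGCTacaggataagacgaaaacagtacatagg
PCDHB15, chr5:141245302-141245361, plus strand: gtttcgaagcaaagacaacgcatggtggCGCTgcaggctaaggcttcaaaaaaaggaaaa
PCDHGA10, chr5:141412919-141412978, plus strand: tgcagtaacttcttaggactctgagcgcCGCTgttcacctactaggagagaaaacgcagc
The 3 beta stretches were placed at the letters GTGGCGCT, so that they share these letters by choice. The gamma stretch was placed at the last CGCT before the start and has the core without the other letters. In the 250 bases before the start, on either strand, CGCT was found in 12 of 13 PCDHA, 13 of 14 PCDHB and 25 of 25 PCDHG promoters, beside 64.8% of all promoters, so that the core alone is common. GTGGCGCT, which includes the core and was chosen after these promoters were read, was found in 12 of 14 PCDHB promoters and in 0 of those of the other families, beside 0.94% of all promoters. Both called and not called beta genes held it, and a match is a run of letters, not a bound site.

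Of 100 tested genes in 7 lists of genes that act with cadherins, 18 were called, 13 higher and 5 lower, beside 16.1% of all tested genes. Among the called genes, *MMP7*, *CLDN9* and *VANGL2* reached the filter's level in 1 group alone. Of 18 catenins and plaque proteins, 14 were tested, with a median log2 fold change of -0.056, and 2 were called, both higher, a share of 14.3% that is near the 16.1% of all genes. These were *AFDN* (log2 fold change 0.81), which encodes the nectin adaptor afadin, and *PPL* (0.71), which encodes the desmosomal linker periplakin. *CTNNB1*, beta-catenin, had 23486 and 24767 counts in control and 18976 and 19118 counts in sgUSP22 libraries, a log2 fold change of -0.42 (SE 0.035, edgeR adjusted p = 7.17e-06) under 1.5-fold and of the same sign as *CDH2*. The other catenins of the classical complex did not pass the test, with log2 fold changes of -0.05 for *CTNNA1*, -0.20 for *CTNND1* and -0.06 for *JUP*, which turned to 0.088 with the GC and length correction. Of 21 other cadherin superfamily genes, 9 were tested and *CELSR3*, a planar polarity cadherin, was called higher (0.59), a share of 11.1%.

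Of 17 repressors and activators of E-cadherin, 11 were tested and 9.09% of these were called, beside 16.1% of all tested genes. *TCF4*, a basic helix-loop-helix factor known to repress *CDH1*, was the only one called, in the lower direction. It had 776 counts in each control library and 155 and 129 counts in sgUSP22 libraries (log2 fold change -2.53, SE 0.14, edgeR adjusted p = 5.54e-07). *CDH1* was listed at 0 in all 4 of these libraries, as given above. Of 20 genes of clustered protocadherin choice and silencing, which hold *CTCF*, cohesin and DNA methylation genes, 18 were tested with a median of 0.087. The share called was 5.56%, beside 16.1% of all tested genes. *DNMT3B*, a de novo DNA methyltransferase, was the only one called. It had 472 and 498 counts in control and 326 and 303 counts in sgUSP22 libraries (log2 fold change -0.70, SE 0.13, edgeR adjusted p = 0.00108).

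Of 21 genes of cadherin processing and turnover, 20 were tested, and 15% of these were called, near the 16.1% of all tested genes. None was called lower, beside 7.25% of all tested genes. *ADAM17* (log2 fold change 0.73), a sheddase, and *MMP7*, a matrix metalloproteinase, were among those called higher. *MMP7* reached the filter's level in sgUSP22 libraries alone. It was listed at 0 in both control libraries and had 34 and 20 counts in sgUSP22 libraries. The observed level was at least 8.50-fold higher against the floor of 3 counts in each control library. This bound, too, leaves out the counting error of the sgUSP22 counts. Of 19 nectin and tight junction genes, 16 were tested and 5 were called, or 31.3% beside 16.1% of all genes. *CLDN4* (1.22), *NECTIN4* (0.98) and *CLDN7* (0.82) were called higher, and *CLDN9* (-2.36) and *CGN* (-0.86), which encodes cingulin, lower. *CLDN9* had 12 and 28 against 5 and 3 counts, reached the filter's level in control libraries alone and ranged from -2.83 to -1.65 when 1 library was left out, with the call lost without control replicate 2 or either sgUSP22 library. The call of *NECTIN4* was lost without any 1 of the 4 libraries. Of 13 partners of FAT and DCHS, 12 were tested and 5 were called, or 41.7% beside 16.1%. These lists are small and were chosen with earlier results of these data known, and their shares were not tested. The shares also count *CLDN9* and *VANGL2*, each of which reached the filter's level in 1 group alone and so had to differ. *TAOK2* (1.02), *VANGL1* (0.91) and *TAOK1* (0.62) were called higher and *EVL* (-0.60) lower. *VANGL2*, a core planar polarity gene, was also called higher, with 0 and 3 counts in control and 34 and 37 counts in sgUSP22 libraries, a ratio of 22.4 with a 95% counting interval of 7.36 to 111. It reached the filter's level in sgUSP22 libraries alone, and its fitted log2 fold change was 3.45 without control replicate 1. Without control replicate 2 the remaining control library was at 0, so that the fit gives no size. Without sgUSP22 replicate 2 *TAOK1*, *EVL* and *CELSR3* came under 1.5-fold, as did *EVL* without control replicate 2 and *CELSR3* without control replicate 1. Over the 7 lists, the medians ranged from -0.056 to 0.14, beside 0.0009 over all tested genes.

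**Figure D3:**
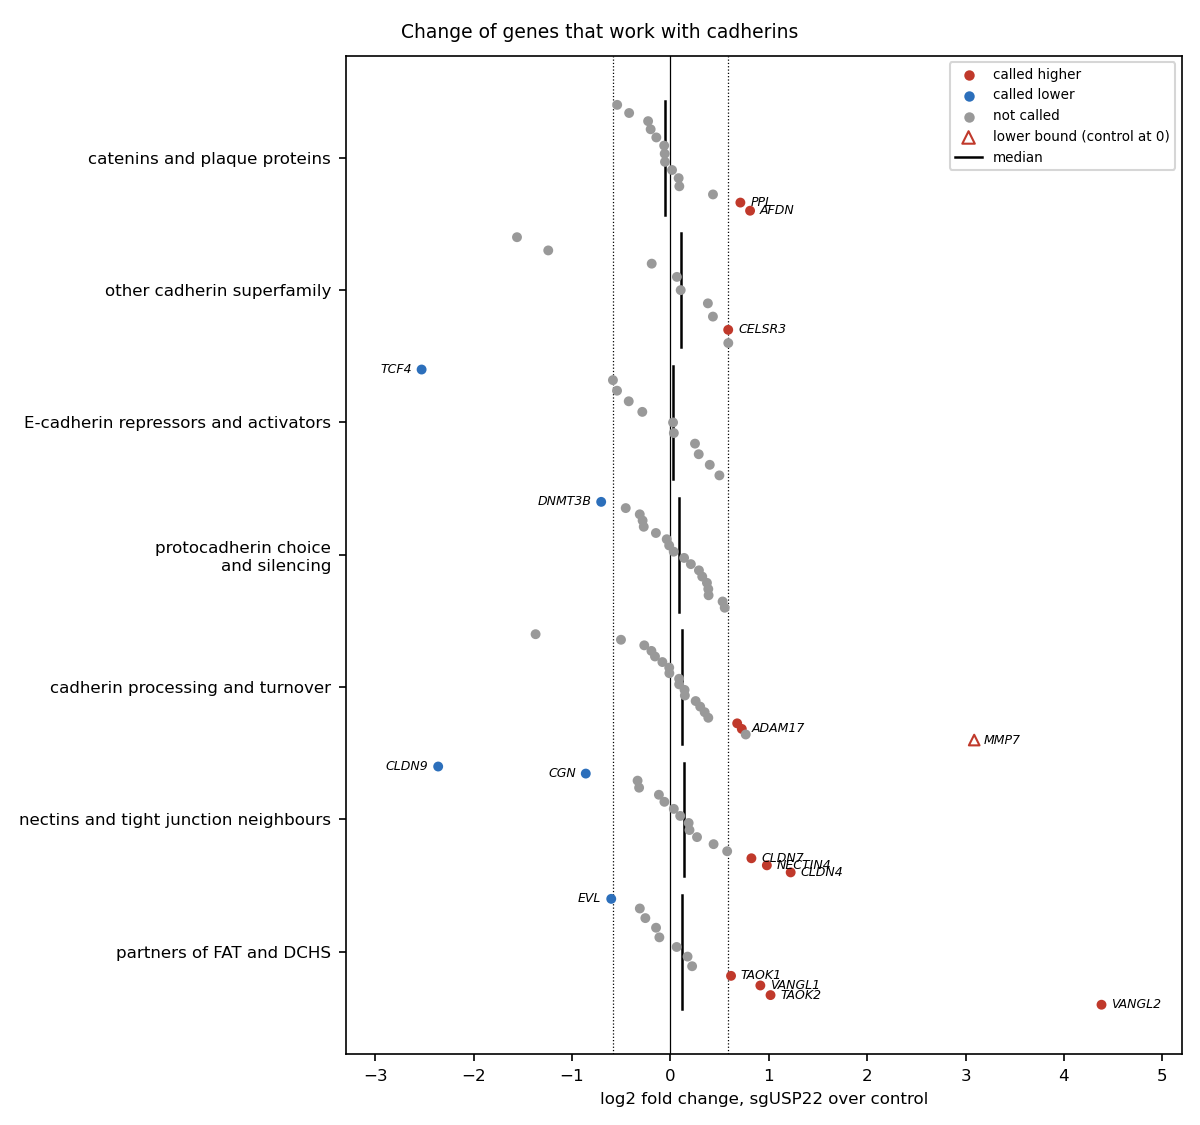
Log2 fold change (sgUSP22 over control) of the tested genes in 7 lists of genes that act with cadherins, with 1 point per gene, called genes coloured and those reported here named, dotted lines at 1.5-fold and an open triangle at the lower bound for *MMP7*. The bound sets control at 3 counts and leaves out the counting error of the sgUSP22 counts. *TCF4* and *CLDN9* lie lowest, and the medians of the lists lie between -0.056 and 0.14.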

How the data were processed

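RNA-seq was measured in 2 control and 2 sgUSP22 libraries. The authors aligned reads to hg38 with HISAT2 2.2.1, sorted them with Samtools and deposited whole-number gene counts from StringTie 2.2.1, without normalization. The annotation, strand setting and read length are not given in the sources used here. Columns were assigned by name, and 0 were left unassigned.

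StringTie derives counts from coverage, and low values were uneven (in control replicate 1, 460 genes had 4 counts and 214 had 3), so a 0 means only listed at 0. The libraries of a group were not copies of each other (chi-square per gene 7.88 in control, 8.28 in sgUSP22, beyond sampling noise). With 2 libraries per group, low counts carry the largest error.

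The quasi-likelihood test of edgeR 4.0.16 (R 4.3.3) was fitted to the whole table after TMM and filterByExpr (minimum count 10), and p-values of 15150 genes were adjusted by Benjamini-Hochberg. Calls needed a change of 1.5-fold or more and an adjusted p-value under 0.05. Each SE is the size of the log2 fold change over the square root of its F statistic. The fit was tested on simulated data with 200 changed genes. Alternatives were library size alone, RLE factors, a replicate block, glmTreat against 1.5-fold, no fold threshold, a minimum mean of 50 counts, no filter, a correction for GC content and length (lowess, span 0.3), DESeq2 1.42.0 and leaving out each library.

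Positions, exons and lengths came from GENCODE v44, which matched 25482 of 28278 symbols and all 93 members. Promoters came from RefSeq (GRCh38.p14), which held 89 for 71 members. Levels per kilobase use the length of the canonical transcript. Members, lists and the motif were chosen with earlier results of these data known. Outside the clusters all tested members are named, and within each cluster the called genes and the 3 with the most counts. In each list of genes that act with cadherins, called genes and *CTNNB1*, *CTNNA1*, *CTNND1* and *JUP* are named, apart from 1 called gene that is not reported here. Other clustered genes with counts that could not be tested were named after their values were seen.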

Additional observations from a re-analysis of the deposited data

How the results depend on the processing

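Of 188 comparisons of single members with an alternative that used all libraries, 178 kept their direction and call, 7 lost the call, 1 gained it and 2 changed sign. The 5 members called higher became 3 without the filter, 2 with a mean of at least 50 counts and 2 in the test against 1.5-fold. The 1 called lower became 0 in the test against 1.5-fold and 5 without a fold threshold. With a mean of at least 50 counts, *PCDHB12*, *PCDHB14* and *PCDHGA10* were not tested, so that these calls were not lost in a test. Leaving out 1 library gave between 3 and 8 called higher, with 8 without control replicate 2, 3 without either sgUSP22 library and 5 without control replicate 1, and between 1 and 2 called lower. *PCDH7* and *PCDHAC2* kept their calls in every alternative run, and *PCDH1* and *PCDHB12* lost theirs in the test against 1.5-fold alone. *PCDHB12* was not tested without either sgUSP22 library or with a mean of at least 50 counts. *PCDHB14* lost its call in 5 of its alternatives and *PCDHGA10* in 3. The sign changed for *FAT1* (-0.066) and *JUP* (0.088) with the GC and length correction and for *PCDH10* (0.0018) with library size alone. Leaving out 1 library gave log2 fold changes of -0.24 to 1.55 for *PCDH12*, -0.15 to 0.64 for *CDH4*, -0.89 to 6.23 for *CDH5* and -1.16 to 3.97 for *PCDHGA9*, and log2 ratios of 1.30 to 1.54 for the alpha sum and 0.069 to 0.62 for the gamma sum. Among the lists, RLE factors gave 0 other cadherin superfamily genes called higher and 2 E-cadherin regulators called lower. Library size alone gave 1 gene of choice and silencing called higher and 0 partners of FAT and DCHS called lower. DESeq2 and the replicate block each gave 1 nectin or tight junction gene called lower. In these fits without a library, the lone library was assumed to vary like the others.

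Same-numbered libraries showed little shared deviation from their group means (correlation of deviations 0.042). This cannot decide whether the numbers pair the libraries, which the labels do not say. With the replicate block 5 members were called higher and 1 lower. Depth limits the genes listed at 0, where up to 3 counts per library could not be seen.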
